A study of Rattus with 9 samples.

Results

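The cells described here were the T cells of the rat bile duct that carried Il17a RNA. They were chosen by a rule on unique molecular identifiers (UMIs, 1 per captured RNA molecule). A barcode had to have over 400 but under 6000 detected genes, less than 25% of its UMIs from mitochondrial and less than 3% from hemoglobin genes, at least 1 UMI of Cd3d, Cd3e or Cd3g, at least 1 UMI of Il17a, and no UMI of Foxp3, Cd79b, Csf1r or Epcam. The rule found 367 cells among 150379 kept barcodes and 17260 T cells. They are called Il17a+ T cells below, and the other 16893 T cells are called Il17a- T cells. Because Il17a, the Cd3 genes and the excluded genes chose the cells, their values are given as a description and were not tested.

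Bile duct tissue was profiled with droplet scRNA-seq of transcript 3' ends, and 20 libraries from 9 samples were used. The 3 sham samples (sham 1 to 3, 1 library each) came from rats that were operated on but not transplanted. The ctrl group, rats with liver transplantation (LT) and ischemic injury of the graft, gave 1 sample for day 1, day 3 and day 7 after surgery, each made of 3 libraries. In the treat group, ligation of the gastroduodenal and splenic arteries was added to the transplantation so that more arterial blood reached the liver, and the same days gave 3 samples made of 8 libraries. The study worked with young adult Sprague-Dawley rats of both sexes and no transgene was named for these groups. Whether several libraries of 1 sample stand for several rats was not given, so they were summed per sample, and p-values measure the spread between these samples, which may be technical.

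Interleukin 17A, the product of Il17a, is made by helper T cells of type 17, by gamma delta T cells and by other innate-like T cells at barrier surfaces such as gut, skin and bile duct. Such cells use the transcription factor RORα, answer interleukin 23 through the receptor encoded by Il23r, follow the chemokine CCL20 through CCR6, and often make interleukins 17F and 22 as well. These cytokines act on epithelium and stroma, drive the recruitment of neutrophils, and are known in cholangitis and biliary fibrosis.

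Kept barcodes numbered 2456 to 34192 per sample. T cells took 1.38% to 3.34% of the barcodes in the sham samples and 2.06% to 21.2% in the transplanted samples. Il17a+ T cells had a median of 3544 UMIs and 1133 genes, against 3456 UMIs and 1144 genes in Il17a- T cells, so the classes were of like depth. A barcode was read as a suspected doublet where it held at least 2 UMIs of each of 2 markers of another cell type. This marked 48 Il17a+ and 1960 Il17a- T cells. No barcode was shared between Il17a+ T cells of different libraries, and 9 of their barcodes also occurred among kept barcodes of another library. The hemoglobin limit removed 6549 barcodes from ctrl day 3, most of them from its libraries 2 and 3.

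Of all 578 kept barcodes with Il17a, 367 met the rule, 140 lacked Cd3 UMIs and 71 had Cd3 UMIs together with an excluded gene. Il17a+ T cells nevertheless held 10562 of the 12730 Il17a UMIs, or 83.0%. Of the 71 barcodes, 21 carried Foxp3, the factor of regulatory T cells, 31 carried Epcam of epithelium, 19 carried Csf1r of macrophages and 7 carried Cd79b of B cells. All 3 Cd3 genes were detected in 256 of the 367 cells, and 26 had only 1 of them. Cd3e was found in 84.5% of Il17a+ and 82.6% of Il17a- T cells. The constant genes of the T cell receptor chains were not among the features, so αβ and γδ T cells could not be told apart directly.

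Il17a was abundant in most of these cells. A cell held a median of 9 Il17a UMIs and at most 593, and 181 cells held 10 or more. At the threshold of the rule, 59 cells held 1 Il17a UMI and 34 held 2, whereas the cells just outside held none. Summed over the cells of a sample, Il17a reached 7459, 8615 and 8920 CPM (UMIs per 1000000 UMIs) in sham 1, 2 and 3. It reached 6883, 9304 and 9364 CPM in ctrl at days 1, 3 and 7, and 5235, 2462 and 3083 CPM in treat at the same days. The ctrl samples lay just below or just above the sham range, and the 3 treat samples lay below every sham and ctrl sample, an order that turned with single libraries and cells. Without its library 2, ctrl day 7 was at 4144 CPM over 55 cells, and without its cell with 593 Il17a UMIs, ctrl day 3 was at 2925 CPM, both below treat day 1. Ctrl day 1 without its library 2, which gave 1 cell, was at 5112 CPM, also below treat day 1. Treat day 1 without its own library 2 was at 8376 CPM, above sham 1 and ctrl day 1. The median number of Il17a UMIs per cell was 25, 42 and 15 in the sham samples, 13, 8 and 19.5 in ctrl and 7, 5 and 4 in treat, and 10 in ctrl day 7 without its library 2. The share of cells at a single UMI was 0% to 22.2% in sham, 0% to 14.8% in ctrl and 8.51% to 26.5% in treat. These levels belong to the gene that chose the cells and were not tested.

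**Figure D1:**
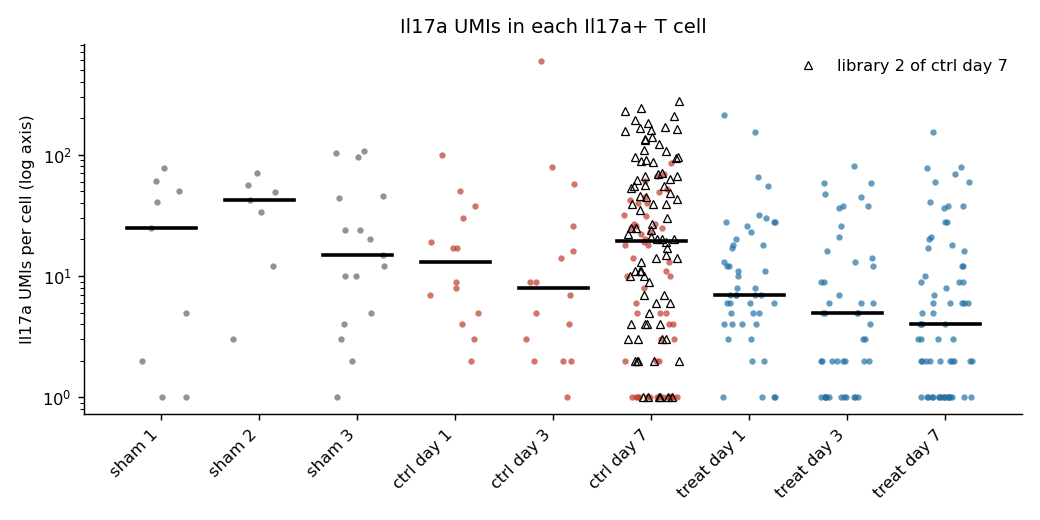
Il17a UMIs in each Il17a+ T cell (y axis, log scale) by sample (x axis), with a bar at the median of the sample; open triangles are cells of library 2 of ctrl day 7. Medians were 15 to 42 UMIs in sham, 8 to 19.5 in ctrl and 4 to 7 in treat, and 1 cell of ctrl day 3 held 593.

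RNA from broken cells gives a low background in droplet data. Il17a was found in 0.103% of epithelial barcodes (Krt19 and Epcam, no Cd3), in 0.0726% of Csf1r barcodes, in 0.0737% of Cdh5 barcodes of endothelium and in 0.0802% of Col1a1 and Dcn barcodes of fibroblasts, against 2.13% of T cells. The other types had the greater depth, with medians of 5264 to 9019 UMIs against 3459 in T cells. A pair of libraries stood apart. Library 2 of ctrl day 7 held 87 of the 367 cells and 4851 of their Il17a UMIs, and 29.0% of its 300 T cells were Il17a+, against 1.24% and 0.527% in the other libraries of that sample. Only 4.08% of its barcodes were T cells, against 22.6% and 25.2%, and 51.2% of its barcodes held the neutrophil gene S100a8, against 10.9% and 5.71%. Il17a was found in 0.644% of its barcodes without Cd3. Library 2 of ctrl day 3 was small, with 437 barcodes, 84.9% of them with S100a8. It gave 2 Il17a+ cells among 16 T cells, 8 of its 414 barcodes without Cd3 held Il17a (1.93%), and 499 of its 1162 Il17a UMIs lay in barcodes of at most 100 UMIs. Without it the share of Il17a+ T cells in ctrl day 3 was 2.75% in place of 3.05%, and it was not left out of the tests of genes. The tests of shares and genes below that rest on ctrl day 7 were also made without its library 2, an alternative chosen after the data were seen.

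The first comparison asked how frequent Il17a+ T cells were after transplantation. They were 10.98%, 5.07% and 6.97% of T cells in sham 1, 2 and 3. They were 4.93%, 3.05% and 2.12% in ctrl at days 1, 3 and 7, and 5.23%, 1.89% and 1.15% in treat. The share was lower at each later day in both transplanted arms, and treat day 1 was the only transplanted sample above the lowest sham sample. That place rested on library 2 of treat day 1, with 27 of 246 T cells, since without it the share was 3.07%, below every sham sample, and the difference given next was -4.97 (exact p = 0.0238). The mean was 7.67 ± 3.01% (SD, n = 3) in sham and 3.06 ± 1.68% (SD, n = 6) in transplanted samples, which is -4.61 percentage points of difference (exact permutation over samples, two-sided, p = 0.0476, where 0.0238 is the smallest value this design allows). With 1 sham sample left out the smallest possible exact p is 0.0714, so that no such comparison could pass, and the difference was -2.96 without sham 1, -5.91 without sham 2 and -4.96 without sham 3. With 1 transplanted sample left out it was -5.04 to -4.23, at an exact p of 0.0357, the smallest possible, without treat day 1 and 0.0714 without any of the other 5. The sham samples rested on 9, 7 and 17 Il17a+ T cells, and the exact 95% binomial interval, which covers counting error only, ran from 5.14% to 19.8% in sham 1, from 2.06% to 10.2% in sham 2 and from 4.11% to 10.9% in sham 3. Without library 2 of ctrl day 7 the ctrl day 7 share was 0.859% and the difference was -4.82 (exact p = 0.0476).

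The share of T cells among barcodes differed too, and was above every sham sample in each transplanted sample except ctrl day 1. T cells made up 2.06%, 6.44% and 19.6% of barcodes in ctrl at days 1, 3 and 7, and 3.69%, 14.1% and 21.2% in treat. As a share of all barcodes, Il17a+ T cells were 0.366%, 0.0702% and 0.142% in sham, 0.102%, 0.196% and 0.415% in ctrl and 0.193%, 0.266% and 0.244% in treat. On that scale the direction turned, with means of 0.193 ± 0.155% (SD, n = 3) in sham and 0.236 ± 0.105% (SD, n = 6) in transplanted samples, which differed by less than the spread between samples (exact p = 0.619). Without library 2 of ctrl day 7, that sample was at 0.205% of barcodes and the difference was 0.0082 percentage points (exact p = 0.929). When each of the 20 libraries was read as a sample, the share of T cells ranged from 0% to 29.0% in the 17 transplanted libraries and the difference from sham was -2.68 (permutation p = 0.402). Treat and ctrl differed by a mean of -0.61 percentage points over 3 days (exact p = 0.5, smallest possible 0.25), by -0.19 without library 2 of ctrl day 7 (exact p = 1) and by -1.33 without library 2 of treat day 1 (exact p = 0.25, with treat below ctrl at each day).

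**Figure D2:**
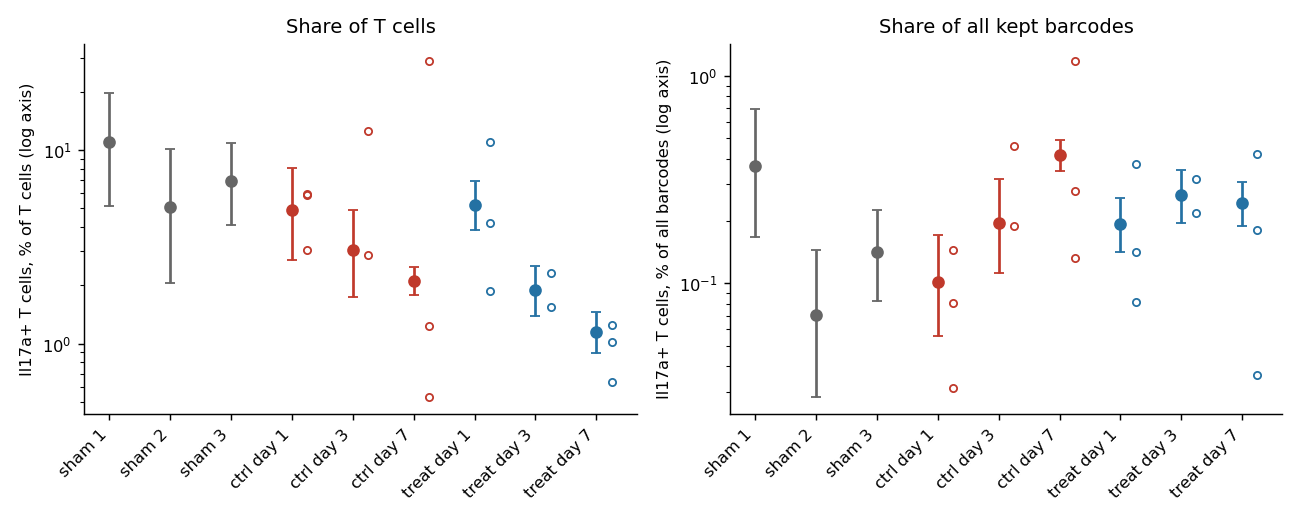
Il17a+ T cells per sample as a percent of T cells (left) and of all kept barcodes (right), both on log axes; filled points are samples with exact 95% binomial intervals, open points are single libraries of a sample (libraries at 0 are not drawn). The share of T cells was 5.07% to 10.98% in sham and 1.15% to 5.23% after transplantation, while the share of all barcodes overlapped between sham and transplanted samples.

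The second comparison asked which other genes marked these cells. Tested within samples, Il17a+ T cells carried more RNA of the interleukin 23 receptor, of the interleukins 17F and 22 and of Csf2 than Il17a- T cells. The residency genes Cxcr6, Itgae and Cd69, and S100a4 and S100a6, were also higher. The granzymes Gzma, Gzmk and Gzmm, as well as Ccl3, Ccl4, Cd27 and Cd8b, were lower. Il22 and Csf2 were not higher in ctrl day 1. In the 7 samples with at least 10 Il17a+ T cells (sham 3 and the 6 transplanted samples), UMIs were summed per class and sample and compared with edgeR's quasi-likelihood test, with the sample as a block and Benjamini-Hochberg adjusted p. Of 6844 genes tested, 460 were called at adjusted p under 0.05 (6.72%), with 268 higher (3.92%) and 192 lower (2.81%) in Il17a+ T cells. The median log2 fold change of all genes tested was -0.10. Log2 fold changes below are Il17a+ minus Il17a- T cells, with their standard error (SE), and levels are CPM of the summed cells of a class in a sample. A gene could be tested on UMIs of Il17a+ T cells alone. Genes rare in Il17a- T cells entered in this way, and any call of them could only be upward. Among them were Il17f, Il22, Csf2, Il23r, Ltb4r, Il1r1, Scart1, Blk, Zbtb16, Cryaa, Mmp13, Espn and Kcnk1. Genes with under 15 UMIs in Il17a+ T cells were tested only on the count expected from Il17a- T cells. A call of them could only be downward, as for Klrb1c, Havcr2, Tigit, Cpa3 and most of the 10 largest falls given below. The counts of lists below therefore describe the members that were tested and do not measure the direction of a list. Without library 2 of ctrl day 7, 442 genes were called, 375 of them shared with the 460. For 116 genes (1.69%) the lowest CPM of one class lay above the highest of the other, and "without overlap" below means this.

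**Figure D3:**
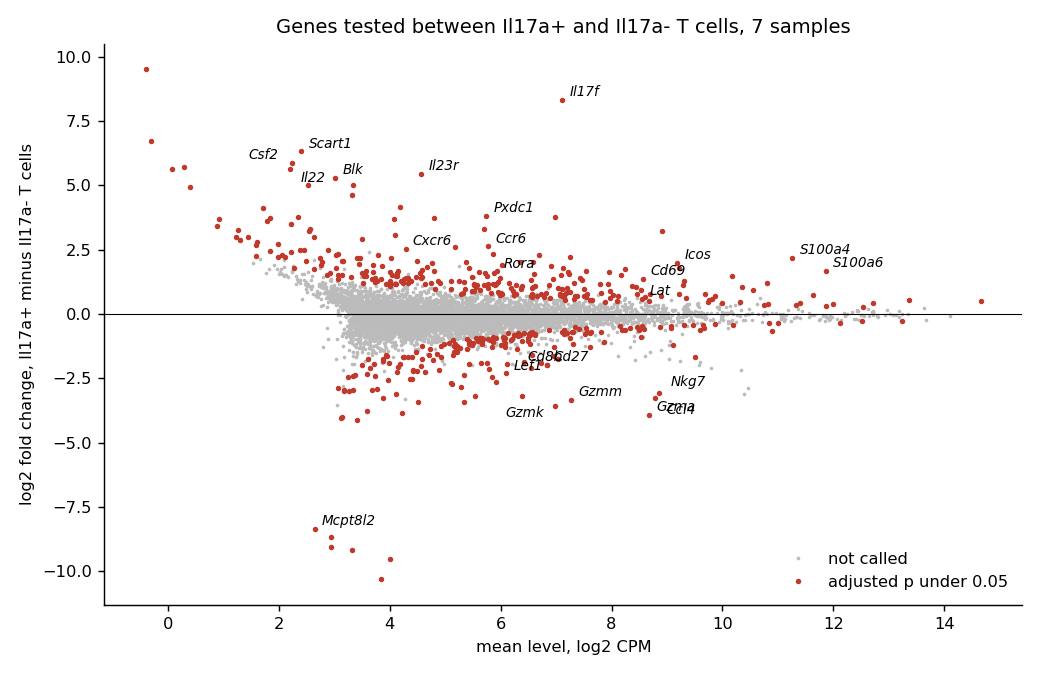
Log2 fold change between Il17a+ and Il17a- T cells (y axis) against the mean level in log2 CPM (x axis) for the genes tested in 7 samples; red points are called at adjusted p under 0.05. Il17f, Il23r, Scart1 and Blk lie at the top with log2 fold changes of 5.29 to 8.33, and granzyme genes lie at the bottom.

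Among the cytokines of the type 17 list, 3 of the 4 tested were higher, but these 3 entered the test through their UMIs in Il17a+ T cells. Il17f, Il22 and Csf2 were found in only 19, 27 and 20 of the 16893 Il17a- T cells. Il17f, which encodes the closest relative of interleukin 17A, was at 37.6 to 1953 CPM in Il17a+ T cells (median 194, 7 samples) and at 0 to 7.00 CPM in Il17a- T cells. The classes did not overlap, and the log2 fold change was 8.33 (SE 0.88, adjusted p = 0.00236). It was detected in 95 of 367 Il17a+ T cells (25.9%) and in 0.112% of Il17a- T cells, and 1 cell of ctrl day 3 held 170 of the 444 UMIs. The share of Il17a+ T cells with Il17f ranged from 7.14% in ctrl day 1 to 76.5% in sham 3, where 13 of 17 cells had it. Il22, a cytokine that acts on epithelium, was at 0 to 65.8 CPM (median 33.7) against 0 to 2.56 CPM, with a log2 fold change of 5.63 (SE 0.63, adjusted p = 1.42e-07), and was found in 28 cells (7.63%). In ctrl day 1 no T cell of either class had it. Csf2, which encodes the granulocyte-macrophage growth factor GM-CSF, was at 0 to 213 CPM (median 17.6) against 0 to 8.002 CPM (log2 fold change 5.87, SE 0.90, adjusted p = 0.00279). It was found in 30 cells, 10 of them from the 33 sham cells. In ctrl day 1 it was found in 0 of 14 Il17a+ and 2 of 270 Il17a- T cells. Ccl20, the ligand of CCR6, had a log2 fold change of 2.41 (SE 1.06) and did not pass (adjusted p = 0.289), and Il21 was too sparse to test.

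Of the other 8 lymphocyte cytokines tested, 1 was higher. Il2 had a log2 fold change of 2.35 (SE 0.46, adjusted p = 0.000813) and was higher in 5 of 7 samples. It was found in only 11 Il17a+ T cells and in 111 of the 16893 Il17a- T cells, so a downward call was hardly possible. Ifng, the cytokine of type 1 cells, was found in 10 Il17a+ T cells (2.72%) and in 6.06% of Il17a- T cells, and its log2 fold change of -0.41 (SE 0.49) did not pass. Il10 was found in 8 of the cells and was not tested.

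Of the 14 receptors of the type 17 list that were tested, 5 were higher and none was lower, and the list's median log2 fold change was 0.59. Il23r, the receptor chain for interleukin 23, was at 43.9 to 150 CPM (median 102) in Il17a+ T cells and at 1.32 to 7.00 CPM in Il17a- T cells. It was above every Il17a- value in all 7 samples (log2 fold change 5.45, SE 0.34, adjusted p = 1e-13) and was found in 108 cells (29.4%) against 0.710%. Ccr6 was at 69.3 to 271 CPM (median 144) against 10.5 to 31.1 CPM, again without overlap (log2 fold change 2.62, SE 0.24, adjusted p = 9.08e-10). Il7r, the survival receptor for interleukin 7, rose by 1.89 (SE 0.23, adjusted p = 2.47e-07) and Ltb4r, a receptor for leukotriene B4, by 3.28 (SE 0.45, adjusted p = 2.52e-06) on the log2 scale. Ltb4r was found in 121 of the 16893 Il17a- T cells and, like Il23r, could only be called higher. Il1r1, the receptor for interleukin 1, was higher on 19 UMIs in 5 of 7 samples (log2 fold change 3.00, SE 0.68, adjusted p = 0.0035). Il21r and Il6r, with log2 fold changes of -0.65 and -0.88, were among the 9 that did not pass.

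The list of type 17 factors also held Blk, a kinase. Of its 12 genes tested, 5 (Rora, Ahr, Runx1, Zbtb16 and Blk) were higher and none was lower, with a median of 0.77. Rora, which encodes RORα, was at 111 to 169 CPM (median 122) against 7.34 to 66.5 CPM and did not overlap (log2 fold change 2.34, SE 0.25, adjusted p = 7.33e-08). Ahr, which senses aryl hydrocarbons, rose by 1.41 (SE 0.30, adjusted p = 0.00178) and Runx1 by 1.29 (SE 0.26, adjusted p = 0.000893) on the log2 scale. Batf, Stat3, Maf, Irf4 and Hif1a, which also act in type 17 programs, had log2 fold changes of 0.05, -0.51, 1.01, -0.32 and -0.04 and did not pass.

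The list of genes known from gamma delta and innate-like T cells shares Blk and Zbtb16 with the one before. Of 9 tested, Scart1, Blk and Zbtb16 were higher and Klrb1c, a receptor of natural killer (NK) cells, was lower. The limit on UMIs fixed the direction of each of these calls. Scart1, Blk and Zbtb16 entered through Il17a+ T cells, and Klrb1c, with 5 UMIs there, only through Il17a- T cells. Scart1, a scavenger receptor of gamma delta T cells, was at 16.3 to 112 CPM (median 44.5) against 0 to 1.296 CPM (log2 fold change 6.32, SE 0.49, adjusted p = 1.89e-11) and was found in 57 cells. Blk, a kinase used by gamma delta T cells that make interleukin 17, was at 12.2 to 156 CPM (median 55.5) against 0.259 to 7.00 CPM (log2 fold change 5.29, SE 0.38, adjusted p = 4.74e-12). Neither gene overlapped between the classes. Zbtb16, the factor PLZF of innate-like T cells, was higher on 21 UMIs in 5 of 7 samples (log2 fold change 3.68, SE 0.77, adjusted p = 0.0014). Sox13, a further gamma delta factor, was found in 12 Il17a+ T cells and was not tested. At least 1 of Scart1, Blk and Sox13 was detected in 110 of the 367 cells, whose median depth was 3718 UMIs against 3538 in the other 257. Il17f was found in 40.0% of the 110 and 19.8% of the 257, and Il23r in 41.8% and 24.1%. Other genes went the other way, such as Cd2 at 10.9% and 53.7% and Lck at 13.6% and 45.9%. Cells of all samples were pooled here, and the share with Scart1, Blk or Sox13 ran from 10.6% in treat day 3 to 57.1% in sham 2. Sample and library are therefore mixed into these shares, which were not tested.

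Tissue residency and chemokine receptor genes were higher in 6 of 12 tested and lower in none, with a median log2 fold change of 1.05. Cxcr6, a homing receptor of liver and bile duct lymphocytes, was at 36.7 to 89.1 CPM (median 50.8) against 3.37 to 20.0 CPM (log2 fold change 2.52, SE 0.32, adjusted p = 7.59e-07). Itgae, the integrin CD103 that binds epithelial E-cadherin, rose by 1.66 (SE 0.24, adjusted p = 9.25e-06) and its partner Itgb7 by 1.55 (SE 0.22, adjusted p = 5.12e-06). Cd69, which keeps T cells in tissue, was at 316 to 1069 CPM against 118 to 360 CPM, and Rgs1 and Cd44 were higher with log2 fold changes of 1.51 and 1.39. Cxcr3, a receptor of type 1 cells, had a log2 fold change of -0.91 and did not pass.

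The S100, galectin and motility list had 4 of 15 members higher and none lower. S100a4, a calcium-binding protein of motile memory cells, was at 2726 to 6686 CPM (median 3838) against 504 to 1557 CPM, without overlap (log2 fold change 2.19, SE 0.14, adjusted p = 5.97e-09), and was found in 93.7% against 44.5% of cells. S100a6 was at 2810 to 8888 CPM against 1103 to 3143 CPM (log2 fold change 1.67, SE 0.14, adjusted p = 5.96e-06). Capg, an actin capping protein, was higher without overlap, and Crip1 was higher by 0.37 (SE 0.10, adjusted p = 0.0241), a call lost under 11 of 19 alternatives.

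**Figure D4:**
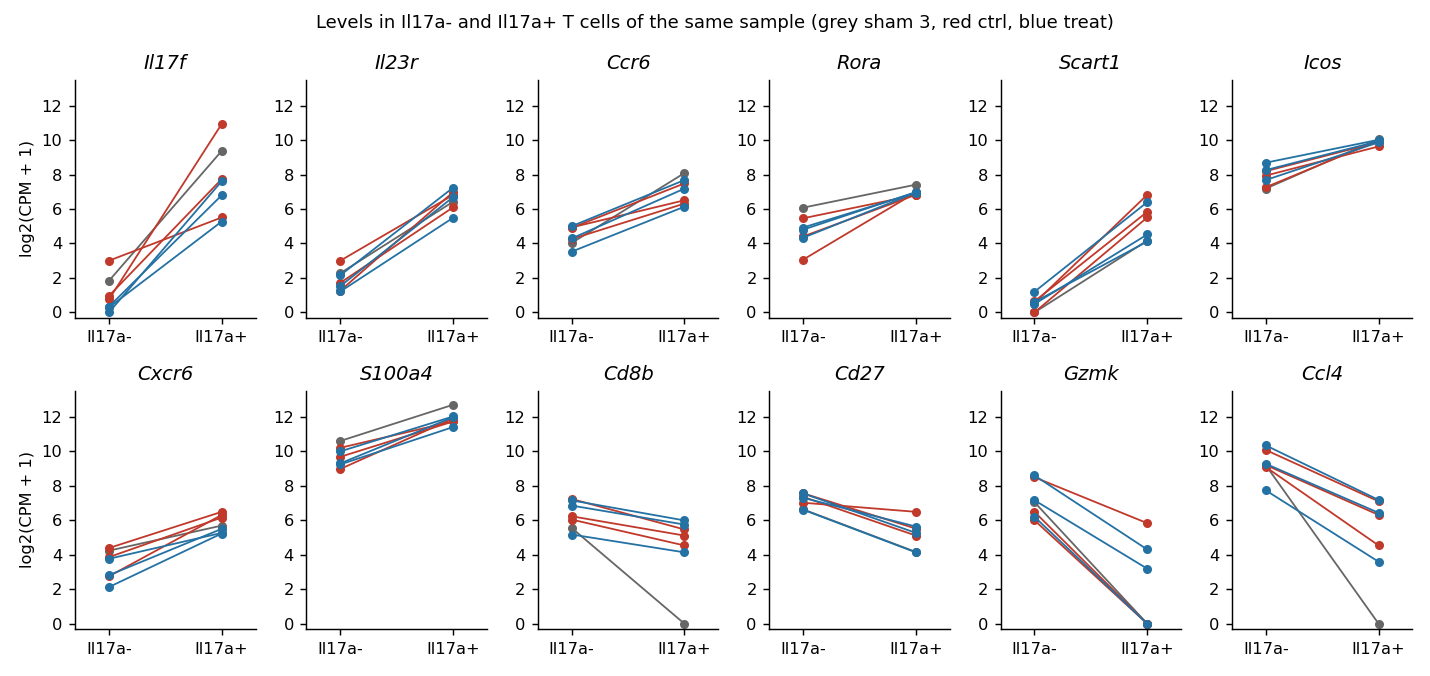
Levels in log2(CPM + 1) of 12 genes in the Il17a- and Il17a+ T cells of each of the 7 samples tested, with a line for each sample (grey sham 3, red ctrl, blue treat). Il17f, Il23r, Ccr6, Rora, Scart1, Icos, Cxcr6 and S100a4 were higher and Cd8b, Cd27, Gzmk and Ccl4 lower in Il17a+ T cells in 7 of 7 samples.

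Type 1 and cytotoxic genes moved the other way: 7 of 12 tested were lower, none was higher, and the list's median log2 fold change was -2.62. Gzmk, a granzyme of memory CD8 T cells, was at 0 to 56.1 CPM (median 0) in Il17a+ T cells and at 63.1 to 388 CPM in Il17a- T cells (log2 fold change -3.58, SE 0.31, adjusted p = 7.79e-09). Gzmm was at 0 to 56.1 CPM against 95.9 to 380 CPM (log2 fold change -3.33, SE 0.35, adjusted p = 3.94e-05), and neither gene overlapped. Ccl4, a chemokine released by activated CD8 T cells, was at 0 to 144 CPM against 212 to 1300 CPM (log2 fold change -3.26, SE 0.26, adjusted p = 2.52e-06). Gzma, Nkg7, Ccl3 and Prf1, which encodes perforin, were lower by -3.92, -3.08, -2.16 and -1.65 on the log2 scale. Nkg7 was the least steady of these and was not called under 6 of 19 alternatives. Ccl5, with a log2 fold change of -3.11 (SE 0.76), missed the threshold (adjusted p = 0.0749), and Tbx21, the factor of type 1 cells, had -0.91 (SE 0.38, adjusted p = 0.181). Of the 4 NK cell markers tested, Gzma was lower and Klrd1, Tyrobp and Fcer1g did not pass, and the summed NK list was at 162 to 1088 CPM in Il17a+ and 1193 to 2603 CPM in Il17a- T cells over all 9 samples.

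T cell receptor and coreceptor genes were mixed, with 1 of 12 higher and 3 lower. Cd27, a costimulatory receptor of naive and memory cells, was at 16.6 to 89.1 CPM (median 37.6) against 97.2 to 189 CPM (log2 fold change -1.97, SE 0.22, adjusted p = 4.91e-08). Cd8b fell by 1.36 (SE 0.25, adjusted p = 0.00032) and Cd2, an adhesion receptor, fell by 0.90 (SE 0.18, adjusted p = 0.00135) on the log2 scale, while Lat, an adaptor of receptor signalling, was higher by 0.59 (SE 0.14, adjusted p = 0.00449). Cd8a (-0.49, SE 0.28), Cd4 (0.36, SE 0.41) and Lck (-0.67, SE 0.21) did not pass. No UMI of Cd4, Cd8a or Cd8b was found in 248 of 367 Il17a+ T cells (67.6%) and in 45.9% of Il17a- T cells, and Cd4 without Cd8 in 18 (4.90%) and 4.19%. The share without a coreceptor UMI was 64.3% and 71.9% in the classes of ctrl day 1 and 67.6% and 40.4% in those of treat day 7. Among T cells without any coreceptor UMI, 5 samples could be tested and 238 genes were called, 212 of them among the 460. Of the 9 naive and central memory genes tested, Lef1 and Dgka were lower and none was higher (median -0.96). Lef1, a factor of naive T cells, was at 0 to 28.5 CPM against 46.0 to 134 CPM (log2 fold change -2.32, SE 0.48, adjusted p = 0.011).

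Of 17 checkpoint and costimulatory genes tested, 4 were called higher and 2 lower. Icos, a costimulatory receptor needed by helper T cells that make interleukin 17, was at 791 to 1066 CPM (median 978) against 145 to 411 CPM (log2 fold change 1.98, SE 0.15, adjusted p = 4.85e-11). It was found in 82.8% of Il17a+ and 43.6% of Il17a- T cells. Tnfrsf25, Il2ra and Pdcd1, which encodes the receptor PD-1, were higher with log2 fold changes of 2.59, 1.78 and 1.27. Havcr2, which encodes TIM-3, and Tigit were lower, by -2.53 and -2.09, on 8 and 6 UMIs in Il17a+ T cells. At such counts they were tested only on the count expected from Il17a- T cells and could only be called lower. Lag3 (-1.49, SE 0.38, adjusted p = 0.0693) and Ctla4 (-0.20, SE 0.34) did not pass.

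Of 20 early response genes, Junb, Nr4a1 and Nr4a3 were higher with log2 fold changes of 0.74, 0.83 and 0.79 and none was lower (median 0.31). Crem, a factor of the cAMP response, was at 292 to 1232 CPM (median 837) in Il17a+ T cells and at 292 to 1128 CPM (median 526) in Il17a- T cells, and its log2 fold change of 0.40 (SE 0.16) did not pass (adjusted p = 0.18). Of 18 hypoxia and glycolysis genes, Ddit4 was higher (0.89, SE 0.14) and none was lower (median -0.16). Of 17 cell cycle genes, Tubb5 was lower (-0.52, SE 0.14) and none was higher (median -0.46), and of 14 interferon-stimulated genes none was called (median 0.60). Gata3, the 1 type 2 gene tested, had a log2 fold change of 0.08.

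By the rule on effect size, the genes with the largest rise that was seen in all 7 samples were Il17f, Scart1, Il23r, Blk, Cryaa, Mmp13, Espn, Adam18, Kcnk1 and Pxdc1. Cryaa, Mmp13, Espn and Kcnk1 were found in only 93, 63, 108 and 77 of the 16893 Il17a- T cells. Like Il17f, Scart1, Il23r and Blk, they entered the test through Il17a+ T cells and could only be called higher. Mmp13, a collagenase, was at 11.2 to 72.2 CPM against 0.432 to 5.12 CPM (log2 fold change 5.01, SE 0.50, adjusted p = 4.93e-09) and was found in 48 cells. Cryaa, the lens chaperone αA-crystallin, was found in 48 cells at a log2 fold change of 5.01 (SE 0.45, adjusted p = 7.12e-10). Pxdc1 was detected in 146 cells (39.8%) against 3.01% of Il17a- T cells. Espn, an actin bundling protein, and Kcnk1, a potassium channel, were higher by 4.60 and 4.12, and Adam18 by 4.17 (SE 0.86, adjusted p = 0.0387).

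Among the called genes that were lower in all 7 samples, the 10 largest falls were in Mcpt8l2, Mns1, Mcpt8l3, Gzma, Mcpt1l4, Apobec2, Gzmk, Gzmbl3, Slc27a2 and Gzmm. Mcpt8l2, Mcpt8l3 and Mcpt1l4 are mast cell protease relatives and Gzmbl3 is a relative of granzyme B, families of near-identical copies between which reads may be split. Mcpt8l2 had 0 UMIs in the Il17a+ T cells of the 7 samples, where 10.8 were expected at the Il17a- level, which makes it at least 3.6-fold lower against a floor of 3 UMIs over the group. Mcpt1l4 had 3 UMIs against 43.8 expected, a ratio of 0.0685 with an exact 95% counting interval of 0.0141 to 0.2003. Mns1 and Mcpt8l3 had 1 UMI each and Apobec2 had 2, and Slc27a2 had 7 and Gzmbl3 had 8. Apart from Gzma, Gzmk and Gzmm, the 10 genes were thus tested only on the count expected from Il17a- T cells. They could only be called lower. Cpa3, the carboxypeptidase of mast cells, had 0 UMIs against 13.7 expected and was the only mast cell marker tested. It too could only be called lower.

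Markers of other cell types were measured in both classes over all 9 samples. Summed over each list, macrophage and monocyte markers were at 0 to 509 CPM in Il17a+ and 104 to 776 CPM in Il17a- T cells, and C1qa, C1qb and C1qc were called lower, with log2 fold changes of -1.25, -1.12 and -1.66. Neutrophil markers were at 0 to 3688 and 4.39 to 6024 CPM. In ctrl day 7 they were higher in Il17a+ T cells (3688 against 770.5 CPM, with a marker in 43.0% against 10.8% of cells), as in sham 3 (406 against 43.5 CPM), and in ctrl at days 1 and 3 they were lower (245 against 6024 and 180 against 3651 CPM). Library 2 of ctrl day 7, rich in S100a8, gave 87 of the 142 Il17a+ but 213 of the 6564 Il17a- T cells of that sample. Library and class are thus mixed in the ctrl day 7 values, and no marker levels without this library are given. Fibroblast markers were at 22.3 to 3791 and 84.2 to 11900 CPM, and smooth muscle markers at 0 to 2183 and up to 8542 CPM. Biliary epithelial markers were at 33.7 to 178 and 56.9 to 536 CPM, endothelial at 0 to 227 and 26.4 to 68.0 CPM, mast cell at 0 to 16.6 and 0 to 42.0 CPM, B and plasma cell at 0 to 605 and 4.80 to 43.8 CPM, and erythrocyte at 50.8 to 1045 and 39.7 to 1058 CPM. None of the markers in the last 5 lists was called apart from Cpa3, and the neutrophil, fibroblast and smooth muscle lists had no called member. Their part in the differences between the classes was not tested beyond leaving out the suspected doublets, after which 710 genes were called, 402 of them among the 460.

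The cells also differed among themselves by how much Il17a they held. T cells were split into those with 0, 1, 2 to 9 and 10 or more Il17a UMIs (16893, 59, 127 and 181 cells), whose median depths were 3456, 3795, 3544 and 3520 UMIs. Il17f was found in 0.112%, 3.39%, 15.7% and 40.3% of these cells. Il23r was found in 0.710%, 13.6%, 29.9% and 34.2%, and Scart1 in 0.219%, 3.39%, 10.2% and 23.2%. Lower genes ran the other way: Nkg7 was found in 46.6%, 20.3%, 12.6% and 3.87%, and Cd27 in 43.5%, 16.9%, 14.96% and 7.73%. In these pooled cells, the shares at a single Il17a UMI lay between those of Il17a- T cells and of the cells with more. The groups of cells differ in their samples, so day and arm are mixed into these shares. Of the 59 cells at 1 UMI, 21 came from ctrl day 7, 12 from treat day 3 and 18 from treat day 7, 62 of the 181 cells with 10 or more Il17a UMIs came from library 2 of ctrl day 7, and how many cells at 1 UMI took it from free RNA was not tested. When Il17a+ T cells were limited to those with at least 2 UMIs, 460 genes were called, 400 of them shared.

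**Figure D5:**
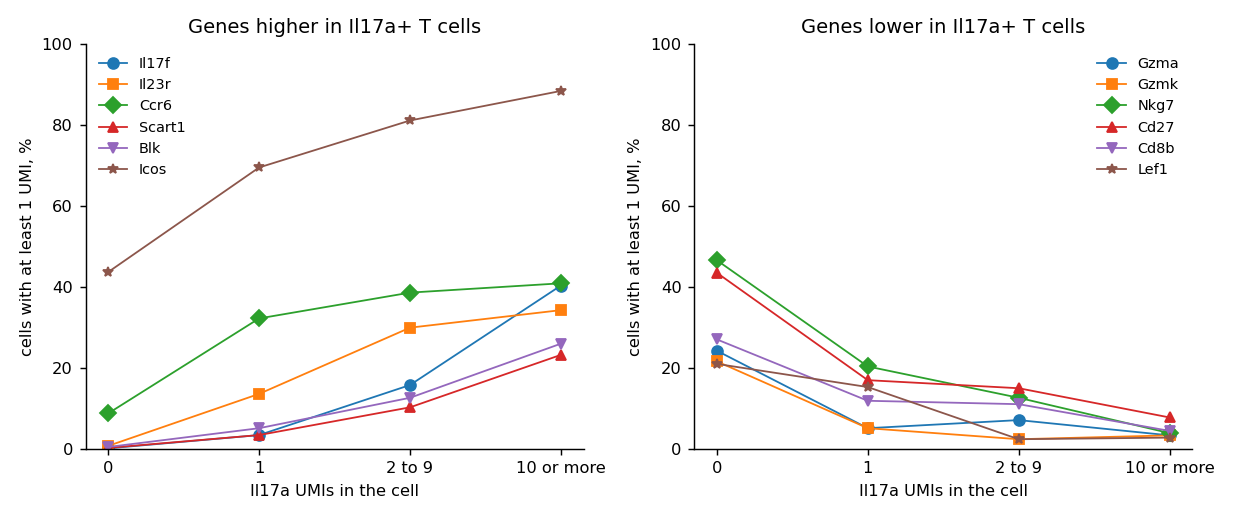
Percent of T cells with at least 1 UMI of a gene (y axis) by the Il17a UMIs of the cell (x axis: 0, 1, 2 to 9, 10 or more), for genes higher (left) and lower (right) in Il17a+ T cells, all samples pooled. Il17f went from 0.112% to 40.3% and Nkg7 from 46.6% to 3.87%.

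Type 17 cytokines met in some cells and not in others. Of the 95 cells with Il17f, 17 also had Csf2 (17.9%, against 4.78% of the cells without Il17f), 11 had Il22 (11.6% against 6.25%) and 39 had Il23r (41.1% against 25.4%). Of the 57 cells with Scart1, 23 also had Blk (40.4% against 13.9%). Il22 and Csf2 were seen together in 4 cells. These pairs share the depth of the cell and its library, and no test was made.

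The third comparison asked what transplantation changed within the Il17a+ T cells, and the sham side of it rested on sham 3 alone, since sham 1 and 2 had under 10 cells. The lone sham sample is assumed to vary like the other groups. Of 6838 genes tested, 18 were called (0.263%), none of them higher after transplantation. The 5 with the largest fall were Prss1, Myh11, Tagln, Actg2 and Acta2, of which the last 4 are smooth muscle genes. All 4 tested smooth muscle markers were among the 18. Of 188 UMIs of 9 smooth muscle genes in the 17 Il17a+ T cells of sham 3, 186 were in 1 barcode. Prss1, a pancreatic trypsinogen, was spread over 16 cells, with 14 UMIs in sham 3, 5 in sham 2, 0 in sham 1 and 1 in all transplanted samples (log2 fold change -7.49, SE 0.92). It was also found in 296 Il17a- T cells (1.75%, against 4.36% of Il17a+ T cells) and was not called by the interaction test below. Whether its UMIs came from free RNA was not tested. Without suspected doublets, 9 genes were called, Prss1 among them, while Myh11, Tagln, Actg2 and Acta2 fell under the limit on UMIs and were not tested. Without library 2 of ctrl day 7, 13 genes were called, and without all of ctrl day 7 there were 9. On simulated data this design recovered 0 of 200 changed genes, so it could miss most changes. When sham 1 and 2 were added, 11 genes were called, 4 higher and 7 lower, and Tagln, Actg2 and Acta2 were not called (edgeR adjusted p = 0.418, 0.114 and 0.48). With day and arm as terms of the fit, genes were called in both directions. The median log2 fold change of all genes was 0.45, and 0.33 when scaled by library size alone.

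A further test asked whether the difference between Il17a+ and Il17a- T cells itself differed between transplanted and sham samples. It called 5 of 6844 genes (0.0731%), all lower in the transplanted samples: Ly49s6, an NK receptor gene, and the smooth muscle genes Myh11, Tagln, Acta2 and Tpm2. The barcode of sham 3 with the most smooth muscle UMIs held 18 of the 20 Myh11 UMIs, 67 of 90 Tagln, 34 of 51 Acta2 and 16 of 27 Tpm2 UMIs of all Il17a+ T cells, and 0 of the 24 Ly49s6 UMIs. Another cell of sham 3 held 11 of the 24 Ly49s6 UMIs. Without library 2 of ctrl day 7, more genes than these 5 were called, again all lower in the transplanted samples. With sham 1 and 2 added, 8 genes were called, 7 of them higher and 1, Ly49s6, lower, and Myh11, Tagln, Acta2 and Tpm2 were not called (log2 differences of -2.28, -1.08, -0.81 and -1.46). Without suspected doublets Ly49s6 was called, and the 4 smooth muscle genes fell under the limit on UMIs and were not tested.

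The fourth comparison, treat against ctrl with day as a term, called 4 genes (0.0585% of 6838), of which Mzb1, a clone-named feature (AABR07060872.1) and Ctla4 were higher (0.0439%) and Fabp4 was lower (0.0146%) in treat. For 3 of them a single cell held most of the UMIs: 1 cell of treat day 7 held 183 of 187 UMIs of Mzb1, a plasma cell gene, and 2313 of 2403 UMIs of AABR07060872.1, and 1 cell of ctrl day 7 held 299 of 427 UMIs of Fabp4, a fatty acid carrier. Ctla4, an inhibitory receptor, was spread over 82 cells. It was at 0, 44.9 and 69.0 CPM in ctrl at days 1, 3 and 7 and at 55.5, 151 and 417 CPM in treat, above ctrl at each day (log2 fold change 2.39, SE 0.49, adjusted p = 0.00221). In Il17a- T cells the values were 57.0, 104 and 139 CPM in ctrl and 71.7, 159 and 184 CPM in treat. The call held without library 2 of ctrl day 7 (adjusted p = 0.00745) and under 7 of 14 alternatives in all. It was lost without suspected doublets (log2 fold change 2.12, adjusted p = 0.0679), with DESeq2 (2.45, adjusted p = 1), with all 9 samples (2.39, adjusted p = 0.101) and without any of the 4 samples of days 1 and 7, and the log2 fold change was 2.11 to 2.61 throughout.

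The last comparison set day 7 against day 1 over both arms, with 2 samples a day and 14 and 47 Il17a+ T cells at day 1. It called 52 genes (0.76% of 6838), 46 higher (0.673%) and 6 lower (0.0877%) at day 7, and 67 genes without library 2 of ctrl day 7. Lag3, an inhibitory receptor of activated T cells, was at 0 CPM in both day 1 samples and at 554 CPM in ctrl and 561 CPM in treat at day 7, in 32 of 142 and 25 of 68 cells (adjusted p = 6.80e-20). Day 3 lay between, at 56.1 and 183 CPM. Lag3 had 0 UMIs among the 61 cells of day 1, so no fold is given, and it was called under 11 of 14 alternatives. Il17a- T cells of the same samples went from 72.0 and 70.8 CPM at day 1 to 1523 and 1151 CPM at day 7. Gzma was likewise at 0 CPM at day 1 and at 250 and 81.5 CPM at day 7, in 17 cells, with 77 of 188 UMIs in 1 cell, and was called under 9 of 14 alternatives. Cxcl9, an interferon-induced chemokine, went from 0 to 112 and 188 CPM in 10 cells, with 53 of 134 UMIs in 1 cell. Its call was lost under 5 of 14 alternatives, among them without suspected doublets (edgeR adjusted p = 0.994), and Il17a- T cells went from 0 in both day 1 samples to 105 and 163 CPM. Mzb1 was found in 5 cells, with 183 of its 187 UMIs in the cell named above. AABR07060872.1, with 2313 of its 2403 UMIs in that same cell, was found in 21 of 142 and 34 of 68 cells at day 7 and in none at day 1, so no fold is given. Over all samples it was found in 15.3% of Il17a+ and 27.9% of Il17a- T cells. It was called under 11 of 14 alternatives, among them without suspected doublets (edgeR adjusted p = 0.00473).

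By list, day 7 was higher for 5 of 17 cell cycle genes (Birc5, Mki67, Ube2c, Stmn1 and Hmgb2, median 3.01), 3 of 17 checkpoint genes (Lag3, Tnfrsf4 and Ctla4), 2 of 12 type 1 and cytotoxic genes (Gzma and Ccl4, with Ctsw lower) and Cd2, against a median of 0.14 over all genes. Hmgb2, a chromatin protein of dividing cells, was at 267 and 294 CPM at day 1 and at 1250 and 1088 CPM at day 7 (log2 fold change 2.15, SE 0.34, adjusted p = 2.95e-07), and Stmn1 at 178 and 194 CPM and then 807 and 944 CPM. Both were also higher at day 7 in Il17a- T cells, Hmgb2 at 452 and 906 and then 1310 and 1374 CPM. In the Il17a+ T cells of sham 1, 2 and 3 (9, 7 and 17 cells), Hmgb2 was at 169.5, 1069 and 1168 CPM and Stmn1 at 198, 712.5 and 812 CPM. At day 3, Hmgb2 was at 786 CPM in ctrl and 1353 CPM in treat. Day 7 thus lay above day 1 but near sham 2 and sham 3. Psmb9 and Cd74, named here after their values were seen, were also among the 46. Psmb9, an immunoproteasome subunit, was at 267 and 233 CPM and then 579 and 947 CPM, and in Il17a- T cells at 386 and 345 CPM and then 785 and 740 CPM. Cd74, the class II chaperone, was at 66.8 and 50.0 CPM and then 337 and 389 CPM, and in Il17a- T cells at 711 and 519 CPM and then 778 and 853 CPM. The share of cells with Cd74 was higher at day 7 in both classes. It was 14.3% and 10.6% and then 34.5% and 61.8% in Il17a+ T cells. In Il17a- T cells it was 21.5% and 21.4% and then 49.0% and 54.0%.

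Lower at day 7 were AABR07036324.1, whose 19 UMIs were all in 1 cell, and Reg3g, Itgae, Hbegf, Ctsw and S100a6, the last with a log2 fold change of -0.84. Itgae was at 334 and 217 CPM at day 1, 89.8 and 77.5 CPM at day 3 and 91.4 and 37.6 CPM at day 7 (log2 fold change -2.05, SE 0.50, adjusted p = 0.0103). Its share of cells was 71.4% and 51.1% at day 1 and 28.2% and 16.2% at day 7, while Il17a- T cells were at 59.0 and 37.4 CPM and then 31.2 and 34.99 CPM. Hbegf, a growth factor for epithelium, was at 334 and 283 CPM and then 133 and 37.6 CPM (log2 fold change -1.87, SE 0.48, adjusted p = 0.0181). In the comparison of classes it was also higher in Il17a+ than in Il17a- T cells (log2 fold change 3.29, SE 0.27, adjusted p = 8.78e-10), in 30.0% against 3.65% of cells. Reg3g, a secreted epithelial lectin, was found in 42.9% and 36.2% of Il17a+ and 53.7% and 40.0% of Il17a- T cells at day 1, against 3.52% and 5.88%, and 3.92% and 5.49%, at day 7. Reg3g was called under 10, Itgae and Hbegf under 7 each and Ctsw under 1 of 14 alternatives. Without suspected doublets Itgae and Hbegf were not called (log2 fold changes of -1.76 and -1.46, edgeR adjusted p = 0.135 and 0.358). With 1 sample left at day 1, 1 gene was called without ctrl day 1 and 0 without treat day 1, where 249 genes had an unadjusted p under 0.05. The log2 fold changes were then -3.30 and -3.43 for Reg3g, -2.17 and -1.84 for Itgae, and -2.17 and -1.48 for Hbegf. Without treat day 7 they were -1.52 for Itgae and -0.90 for Hbegf (edgeR adjusted p = 0.365 and 0.916), and without ctrl day 7 they were -2.64 and -3.07 (edgeR adjusted p = 0.00514 and 0.000248). DESeq2 called 6 genes.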

How the data were processed

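The authors deposited raw UMI counts per gene and barcode for every droplet, without normalization. The submitters' processing notes name Cell Ranger 5.0.1 and Seurat 3.2.0, the matrix headers name Cell Ranger 4, and the genome build and annotation are not given in the sources used here, so no coordinates are printed. The library treat day 3, library 1, was not used here. Matrices of 20 libraries were read, with 23999 features, and rows with the same gene symbol were summed. Total UMIs were 21270647 to 290590249 per sample. The barcode limits come from the rule of the cells. The members, gene lists and tests were chosen with earlier results of these data known.

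UMI counts were summed per sample and class and tested with edgeR 4.0.16 in R 4.3.3 (TMM, robust glmQLFit and glmQLFTest), with SE from the fold change and the F value. Genes with at least 15 UMIs in Il17a+ T cells, or 15 expected from Il17a- T cells pooled over the samples, were tested (expected counts in the text are summed sample by sample), and the 8 genes of the rule were left out before adjustment. The named genes were those of 26 fixed lists, the 10 highest and 10 lowest called genes with 1 direction in all samples, and the 5 highest and 5 lowest of other contrasts. On simulated data the class comparison (6848 genes) recovered 48% of genes changed 2-fold and 91% of those changed 4-fold, with 4 false among 143 calls. Shares were compared by exact permutation in scipy 1.17.1. No doublet caller was run, and suspected doublets were left out as an alternative. Alternatives also changed the tool (DESeq2 1.42.0), scaling, filter, depth (cells thinned to 2000 UMIs), class limits, libraries and samples.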

Additional observations from a re-analysis of the deposited data

Results flagged for a closer look

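5 results were marked because the difference between Il17a+ and Il17a- T cells itself differed between transplanted samples and sham 3 by edgeR's interaction test. The log2 difference, transplanted minus sham, was -6.76 for Ly49s6, -5.60 for Myh11, -4.89 for Tagln, -4.14 for Acta2 and -3.92 for Tpm2 (adjusted p = 0.00168, 0.0355, 0.00346, 0.0192 and 0.0355). In 1 barcode of sham 3 stood 18 of 20 Myh11, 67 of 90 Tagln, 34 of 51 Acta2 and 16 of 27 Tpm2 UMIs of all Il17a+ T cells, and another cell of sham 3 held 11 of 24 Ly49s6 UMIs. Without suspected doublets the 4 smooth muscle genes fell under the limit on UMIs and were not tested, while Ly49s6 was called with a log2 difference of -7.87. With sham 1 and sham 2 added, Ly49s6 was called (-5.31) and the 4 smooth muscle genes were not. Ly49s6 had 0 UMIs in the Il17a+ T cells of sham 1 and sham 2. No sham or transplanted group with several samples was of a size for a test of outlying samples, except the 6 transplanted samples, which differ in day and arm.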

How the results depend on the processing

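Of 62 genes followed through the 19 alternatives of the class comparison, 48 could be tested in all 19, of which 31 were called in each. Over all 62 genes, 48 pairs of gene and alternative were not tested, and of the 1130 tested none changed direction and 69 were not called. The counts of called genes were 460 in the class comparison, 753 with no filter, 710 without suspected doublets, 238 without coreceptor UMIs and 237 with no sample block, and 339 to 448 when a sample was left out. For transplanted against sham cells the 18 became 6 with DESeq2, 4 with a filter of 50 UMIs, 9 without suspected doublets, 30 with day and arm as terms, 11 with all 9 samples, and 9 to 18 with a sample left out (9 without ctrl day 7 and 10 without ctrl day 1). For treat against ctrl the 4 became 0 with DESeq2 (23 at an unadjusted p under 0.05), 2 without suspected doublets, 1 with libraries as samples, 9 without library 2 of ctrl day 7, 2 with all 9 samples and 1 to 56 with a sample left out (56 and 55 without ctrl and treat day 7, 10 without either day 3 sample, 1 without either day 1 sample). None of the 4 was among the 2 genes called without suspected doublets, which were both lower in treat, or among the 56 and 55. Fabp4 ranged from -5.44 to 3.34 with a sample left out, turning to 3.03 and 3.34 without either day 7 sample, and was at -0.40 without library 2 of ctrl day 7. For day 7 against day 1 the 52 became 6 with DESeq2, 33 without suspected doublets, 28 with libraries as samples, 31 with all 9 samples and 0 to 97 with a sample left out (1 and 0 without ctrl and treat day 1, 89 and 97 without ctrl and treat day 7). The interaction's 5 became 2 without suspected doublets, 8 with all 9 samples (7 higher, 1 lower) and 2 to 5 with a sample left out (2 without ctrl day 1 or day 3). By exact permutation, the share difference of -4.61 was 0.0432 against all barcodes (0.0082 without library 2 of ctrl day 7), -2.68 over libraries, -4.31 with ctrl only, -4.91 with treat only (smallest possible p 0.1 in both), and -5.91 to -2.96 with a sample left out (p = 0.143 without sham 1 or sham 3 and 0.0714 without sham 2, where 0.0714 is the smallest possible, and 0.0357 without treat day 1 and 0.0714 without each of the others, where 0.0357 is the smallest possible). The causes were not tested. Sham 1 and 2 entered fits of genes only where all 9 samples are named, and no value could be given for Cd4 T cells only (18 cells) or for a sham contrast without sham 3. No paired analysis was possible because the groups share only replicate number 1; the sample block of the class comparison and the matching of arms by day do not use replicate numbers. Alternatives without library 2 of ctrl day 7, ctrl day 3 or treat day 1 and with all 9 samples were chosen after seeing the data. The few cells per sham sample limit every comparison with sham.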
